A study of Oryza sativa with 9 samples.

Results

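OsCOMT overexpression (OE) was compared with the wild type (WT) in rice leaves. All genes whose mean over the libraries of the study reached 1 FPKM were tested, which is 19850 of the 37858 genes in the table. FPKM are reads scaled to gene length and to the library total. The last gene above this level had a mean of 1.00 FPKM over the 9 libraries and the first below it had 0.9999. Leaves of Oryza sativa were taken at 85 days after sowing from 3 genotypes, namely WT, OsCOMT overexpression and OsCOMT mutant, with 3 libraries each. The age is that of the age label, and the titles of the WT and OE libraries hold another number whose meaning is not given. The comparison uses 6 of the 9 libraries, and the mutant libraries add to the estimate of the spread. The labels give neither the promoter, the transgenic line nor the number of plants behind the OE libraries. Whether each replicate is a plant of its own is not stated either, so p-values measure the spread between these libraries, which may be technical.

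OsCOMT encodes a caffeic acid O-methyltransferase, which transfers a methyl group from S-adenosylmethionine. In grasses such enzymes methylate the phenolic precursors of lignin, the polymer that stiffens vessel and fibre walls. The enzyme also acts on N-acetylserotonin, the last precursor of melatonin, an indole that has been tied to delayed leaf senescence. The series title links the gene to senescence, the vasculature and grain yield.

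The library totals of WT and OE lay between 10795517 and 11809530 reads. The 4 leaf mesophyll genes RBCS-C, RCA, CAB2R and GLO1 summed to between 852 and 2192 FPKM in WT and between 1224 and 2401 FPKM in OE. The 7 panicle and flower markers summed to 13.7 to 15.7 FPKM in WT and 8.60 to 15.5 FPKM in OE, and MADS8 was at 0 throughout. The 3 root markers summed to 7.83 to 13.5 FPKM in WT and 5.48 to 10.8 FPKM in OE, with LSI2 and YSL15 at 0. The 2 endosperm markers summed to 2.59 to 3.58 FPKM in WT and 2.07 to 3.78 FPKM in OE. Mesophyll genes were thus far above those of other organs in every library, and the summed ranges of the genotypes overlapped. In bulk leaf RNA, fewer cells of a type and less RNA per cell cannot be told apart.

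The targeted gene, OsCOMT (Os08g0157500, chromosome 8), had 4234, 3972 and 3663 reads in WT and 32807, 48749 and 46002 reads in OE. As FPKM these were 259, 237 and 228 in WT and 1945, 3162 and 2823 in OE. The groups did not overlap, and OE replicate 1 held the lowest of the OE values. On the log2 scale OE exceeded WT by 3.42 (SE 0.27, limma adjusted p = 0.00043), and without OE replicate 1 it was 3.63 (limma adjusted p = 0.00075). The mutant libraries were at 226, 398 and 458 FPKM, a log2 fold change against WT of 0.52 (limma adjusted p = 0.15). The next tested identifier after OsCOMT, Os08g0157550, had a log2 fold change of -0.36 (limma adjusted p = 0.73). The one after that was Os08g0157600 (CCA1, which encodes a clock transcription factor). CCA1 was at 9.01, 6.89 and 9.20 FPKM in WT and 8.37, 8.40 and 7.06 FPKM in OE. Its groups overlapped and its log2 fold change was -0.06 (limma adjusted p = 0.91).

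Few genes separated OE from WT leaves beyond the spread of the libraries. With limma on log2(FPKM + 1), 46 of 19850 genes passed at an adjusted p under 0.05, which is 0.232%. Of these, 34 were higher in OE (0.171% of the genes tested) and 12 were lower (0.0605%). Before adjustment, 2007 genes (10.1%) had a p under 0.05, with 1020 higher (5.14%) and 987 lower (4.97%). The 6 libraries fell into groups that did not overlap for 3257 genes (16.4%), with OE above WT in 1508 (7.6%) and below it in 1749 (8.81%).

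Outside a stretch of chromosome 11 that is described further on, 25 of 19765 genes were called, or 0.126%. They lay on 10 chromosomes, with 18 higher and 7 lower in OE, and OsCOMT was among them. In 17 of them the change was at least 1 on the log2 scale, and the sizes ran from 0.54 to 4.13. WT and OE did not overlap in any of the 25 genes, which calling them on these same libraries favours. Over all tested genes the share without overlap was 16.4%. The count was 14 when the genes of the stretch were left out before the p-values were adjusted. It was 13 without WT replicate 1, 16 without WT replicate 2 and 55 without OE replicate 1.

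Among these 25 genes, 6 formed 3 pairs of adjoining tested identifiers, each pair moving in 1 direction. The files do not pair these identifiers with product names. How reads that match more than 1 gene were counted, and whether strand was used, is not given in the sources used here, so the split of reads between adjoining genes is uncertain.

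The pair on chromosome 4 was the strongest rise outside the stretch. Os04g0397800 had 0 reads in each WT library and 413, 254 and 205 reads in OE, or 23.5, 15.8 and 12.1 FPKM. It also had 0 reads in the 3 mutant libraries, so the transcript was detected in OE libraries alone among the 9. Set against a floor of 3 reads over the WT libraries, it was at least 294-fold higher in OE (limma adjusted p = 2.8e-05). Os04g0398000, the next tested identifier, was at 2.22, 2.30 and 1.57 FPKM in WT and 48.5, 29.0 and 25.6 FPKM in OE. OE replicate 1 was highest for both genes, and the mutant libraries held 9.72, 8.97 and 4.67 FPKM of the second, between WT and OE. For Os04g0398000 the log2 fold change was 3.50 (SE 0.28, limma adjusted p = 0.00056). On either side of the pair, Os04g0397700 had a log2 fold change of 0.01 (limma adjusted p = 0.99) and Os04g0398300 one of 0.23 (limma adjusted p = 0.28).

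On chromosome 3, Os03g0103300 was at 5.66, 8.79 and 5.86 FPKM in WT and 49.1, 74.8 and 72.7 FPKM in OE. The groups lay far apart, and the log2 fold change was 3.10 (SE 0.23, limma adjusted p = 0.00032). Its neighbour Os03g0103200 was at 6.88, 28.6 and 8.94 FPKM in WT and 102, 194 and 145 FPKM in OE. WT replicate 2 stood above the other WT libraries for both genes, and OE replicate 1 was the lowest OE library for both. For Os03g0103200 the log2 fold change was 3.43 (SE 0.54, limma adjusted p = 0.048), and it kept this direction in 18 of 18 other settings but lost its call in 14 of them (limma or voom adjusted p up to 0.21). In the mutant, Os03g0103200 was at 41.1, 40.7 and 119 FPKM, above all WT libraries.

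The pair on chromosome 9 fell. Os09g0120900 was at 32.3, 33.0 and 40.2 FPKM in WT and 3.02, 1.86 and 5.66 FPKM in OE. Its mutant libraries, at 35.0, 31.9 and 34.0 FPKM, lay among or just below those of WT. The log2 fold change of OE against WT was -3.09 (SE 0.25, limma adjusted p = 0.00056). Os09g0120800 was nearly constant in WT at 59.6, 59.99 and 59.9 FPKM, and lower in OE at 32.4, 27.7 and 28.9 FPKM. The mean was 59.8 ± 0.239 FPKM in WT and 29.7 ± 2.46 FPKM in OE (SD, n = 3). The log2 fold change was -0.99 (SE 0.08, limma adjusted p = 0.00043). The next tested identifiers, Os09g0120100 and Os09g0121000, had log2 fold changes of 0.16 and -0.26 and were not called (limma adjusted p = 0.58 and 0.53).

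**Figure D1:**
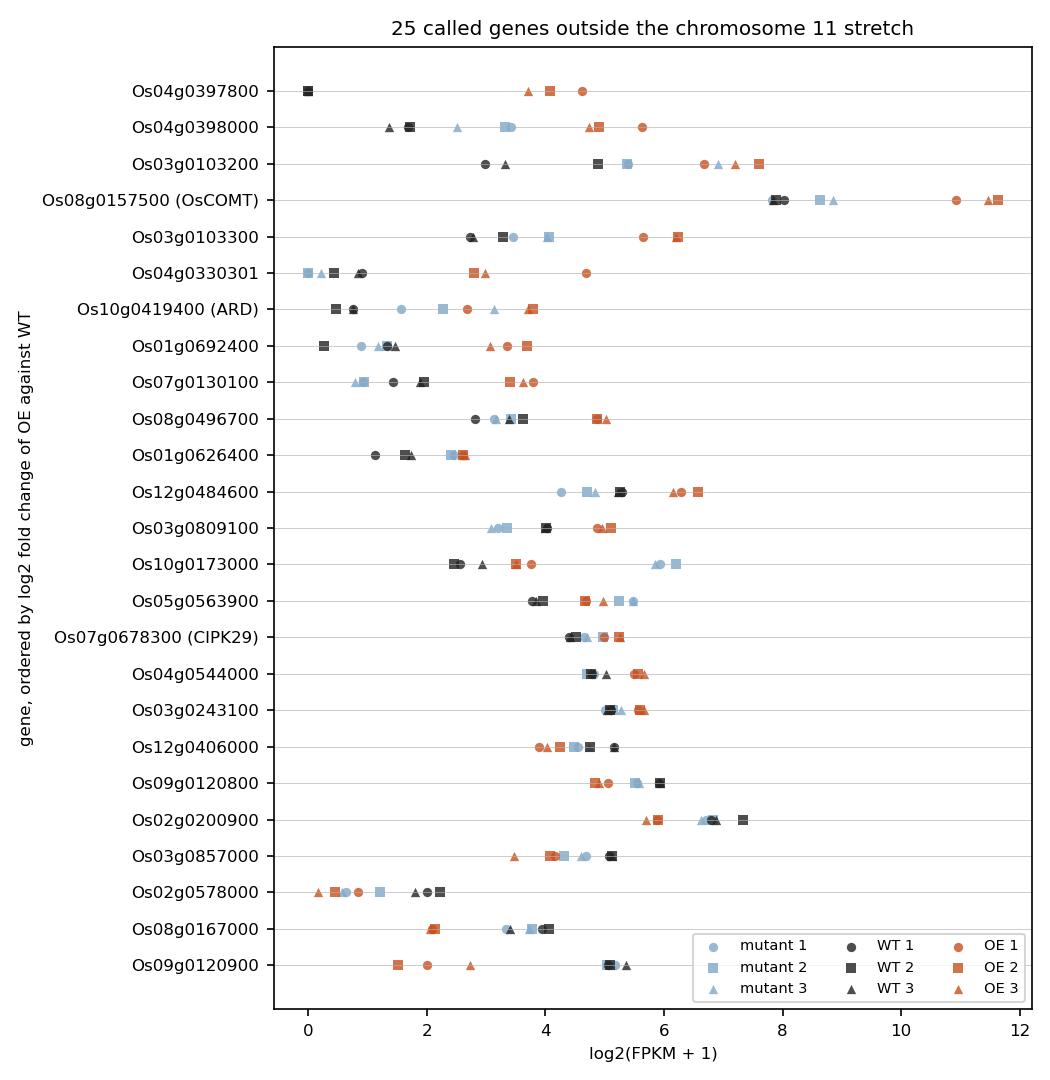
Level of the 25 called genes outside the chromosome 11 stretch in each of the 9 libraries, as log2(FPKM + 1). Each row is a gene, ordered by its log2 fold change, colours mark genotypes and marker shapes mark replicates 1 to 3. OE and WT points do not overlap in any row, from Os04g0397800 at 0 in WT at the top to Os09g0120900 at the bottom.

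Of the called genes outside the stretch, 2 besides OsCOMT carry a name that met the check against RefSeq. CIPK29 (Os07g0678300) encodes a protein kinase that acts with calcineurin B-like calcium sensors. It was at 20.03, 21.9 and 20.5 FPKM in WT and 30.9, 36.7 and 37.3 FPKM in OE. The groups did not overlap, OE replicate 1 was nearest to WT, and the log2 fold change was 0.72 (SE 0.11, limma adjusted p = 0.044). Its mutant libraries, at 24.1, 30.5 and 25.2 FPKM, lay above WT and below OE. Os10g0419400 was matched to ARD, which encodes acireductone dioxygenase of the methionine salvage cycle. A second gene of this family, ARD4, lies beside it in RefSeq, so the name is uncertain between these copies. Its level was 0.680, 0.379 and 0.692 FPKM in WT and 5.37, 12.9 and 12.1 FPKM in OE. OE replicate 1 again held the lowest OE value, and the mutant libraries were above WT at 1.94, 3.86 and 7.80 FPKM. The log2 fold change was 2.73 (SE 0.40, limma adjusted p = 0.033), but the gene was not called with voom on recovered reads (adjusted p = 0.13).

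The other genes that rose are known here by identifier alone. Os07g0130100 went from a mean of 2.41 ± 0.620 FPKM in WT to 11.2 ± 1.62 FPKM in OE (SD, n = 3), and the log2 fold change was 1.85 (limma adjusted p = 0.0012). Os08g0496700 went from 8.95 ± 2.71 to 29.3 ± 1.98 FPKM, a log2 fold change of 1.64 (limma adjusted p = 0.0071). Os03g0809100 went from 15.1 ± 0.254 to 30.6 ± 2.62 FPKM, a log2 fold change of 0.97 (limma adjusted p = 0.0029). In the mutant libraries Os07g0130100 and Os03g0809100 lay below every WT library, at 0.897, 0.913 and 0.724 FPKM for the former and at 8.16, 9.24 and 7.51 FPKM for the latter. Os12g0484600 followed the same order, at 18.2, 25.1 and 27.5 FPKM in the mutant, 38.1, 37.4 and 36.4 FPKM in WT and 77.5, 94.2 and 69.8 FPKM in OE. The mutant values of these 3 genes are given because they lie on the other side of WT, which was seen in the data. Of the 25 genes, limma called 15 in the mutant against WT. The direction was that of OE in 12 and the opposite in these 3. The levels of all 25 genes in the mutant are in the plot of called genes by library. Both comparisons share the WT libraries, so their directions are not independent. Across all tested genes, Pearson's r of log2(FPKM + 1) with the WT libraries was 0.849 to 0.900 for the mutant libraries. For the OE libraries it was 0.964 to 0.978. The share of all tested genes called in the mutant is not given, so the 15 calls cannot be read as particular to these genes.

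Os04g0330301 differed most among the OE libraries, at 24.8 FPKM in OE replicate 1 and 5.95 and 6.93 FPKM in the other two, against 0.883, 0.355 and 0.794 FPKM in WT. It stayed above WT in 3 of 3 OE libraries, and the log2 fold change was 2.76 (SE 0.42, limma adjusted p = 0.044), and was not called with voom (adjusted p = 0.21). Os01g0692400 and Os01g0626400 had log2 fold changes of 2.35 and 1.13. Smaller rises were found for Os10g0173000 (log2 fold change 0.94), Os05g0563900 (0.92), Os04g0544000 (0.71) and Os03g0243100 (0.54). Of these 4 genes, 2 were higher still in the mutant, where Os10g0173000 was at 59.99, 72.6 and 56.3 FPKM against 12.6, 10.4 and 10.3 FPKM in OE, and Os05g0563900 was at 43.6, 36.6 and 43.7 FPKM against 24.8, 24.4 and 30.3 FPKM.

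Besides the chromosome 9 pair, 5 genes fell outside the stretch. Os08g0167000 lay 36 tested identifiers from OsCOMT on chromosome 8, at 14.3, 15.7 and 9.62 FPKM in WT and 3.23, 3.38 and 3.14 FPKM in OE. Its OE libraries were close to each other while WT replicate 3 was below the other WT libraries, and the log2 fold change was -1.71 (SE 0.18, limma adjusted p = 0.0036). The next tested identifiers to it, Os08g0166500 and Os08g0167500, had log2 fold changes of 0.06 and -0.04 and were not called (limma adjusted p = 0.92 and 0.93). Os02g0200900 was the most abundant gene that fell, from 129 ± 27.8 FPKM in WT to 56.0 ± 4.46 FPKM in OE (SD, n = 3), and the log2 fold change was -1.17 (limma adjusted p = 0.0097). Os02g0578000, Os03g0857000 and Os12g0406000 had log2 fold changes of -1.53, -1.20 and -0.97 (limma adjusted p = 0.044, 0.033 and 0.027).

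All 24 genes other than OsCOMT kept their direction in each of the 18 other settings that tested them, and 10 kept their call in each. The 10 were Os02g0200900, Os03g0103300, Os03g0809100, both genes of the chromosome 4 pair, Os07g0130100, Os08g0167000, Os08g0496700 and both genes of the chromosome 9 pair. With voom, 17 of the 25 genes passed. The 8 that did not were Os03g0103200, Os05g0563900, Os01g0692400, Os10g0419400, Os04g0330301, Os02g0578000, Os03g0243100 and Os10g0173000.

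The stretch of chromosome 11 from Os11g0197600 to Os11g0227100 held the remaining 21 calls, 16 higher and 5 lower in OE. Its ends were chosen from calls on these same libraries, so its counts are a description and carry no test. It spans 195 identifiers of the table, of which 85 were tested and 24.7% called. Before adjustment, 37 genes (43.5%) had a p under 0.05, against 9.97% outside the stretch. WT and OE did not overlap in 38 (44.7%), against 16.4% of all tested genes. The 64 tested genes of the stretch that were not called had a median size of log2 fold change of 0.13, against 0.12 for the genes outside the stretch. Of these 64 genes, 16 had an unadjusted limma p under 0.05. Among the 20 tested genes on each side, limma called 0 before and 0 after, with 2 and 3 at an unadjusted p under 0.05 and 0 on either side with voom.

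Several genes of the stretch had reads in only 1 of the WT and OE groups. In 5 of the called genes the WT and mutant libraries held 0 reads and all OE libraries held reads. Os11g0226400 had 185, 152 and 170 reads in OE, or 6.65, 5.98 and 6.32 FPKM, at least 171-fold above a floor of 3 reads over the WT libraries (limma adjusted p = 1.2e-05). Os11g0225300, Os11g0226550, Os11g0226700 and Os11g0203400, the other members of this group, were at least 186-fold, 151-fold, 200-fold and 64.8-fold higher in OE. With voom, 19 of the 21 called genes of the stretch passed. Os11g0203400 (voom adjusted p = 0.11) and Os11g0205300 (voom adjusted p = 0.10) did not. The reverse held for Os11g0214900, with 1001, 898 and 1230 reads in WT and 0 reads in each OE library. It was at 122, 107 and 153 FPKM in WT and 31.6, 19.4 and 47.3 FPKM in the mutant, and at least 1031-fold lower in OE than in WT (limma adjusted p = 4.0e-06).

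Os11g0206000 was the largest rise that was not from 0 reads throughout. It was at 0, 0.0970 and 0 FPKM in WT, at 128, 104 and 119 FPKM in OE and at 0 in the mutant libraries. The log2 fold change was 6.83 (SE 0.12, limma adjusted p = 5.2e-09). Os11g0225100 was at 17.7, 18.7 and 16.6 FPKM in WT and 8.56, 8.71 and 8.72 FPKM in OE, and its log2 fold change was -0.95 (SE 0.09, limma adjusted p = 0.0019). The OE libraries of both genes were close together. Over the 21 called genes the median spread of the 3 OE libraries was 0.30 on the log2 scale, and 0.39 over the 25 calls outside the stretch. The largest spread in the stretch was 1.47, at Os11g0203400, where OE replicate 1 was at 1.46 FPKM and the other two at 4.53 and 5.79 FPKM.

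ADH1 (Os11g0210300), which encodes an alcohol dehydrogenase of fermentation under low oxygen, was the called gene of the stretch with a checked name. It was chosen after its values were seen, as was its neighbour Adh2. ADH1 was at 14.3, 13.7 and 15.7 FPKM in WT and 26.1, 31.3 and 35.2 FPKM in OE. The groups did not overlap, and the mutant libraries lay beside OE at 27.4, 31.0 and 31.2 FPKM. The log2 fold change of OE against WT was 1.03 (SE 0.12, limma adjusted p = 0.0062). Adh2 (Os11g0210500) was at 0.546, 0.961 and 1.89 FPKM in WT and 2.81, 3.9997 and 3.62 FPKM in OE, above every WT library, but it was not called (log2 fold change 1.11, limma adjusted p = 0.19).

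**Figure D2:**
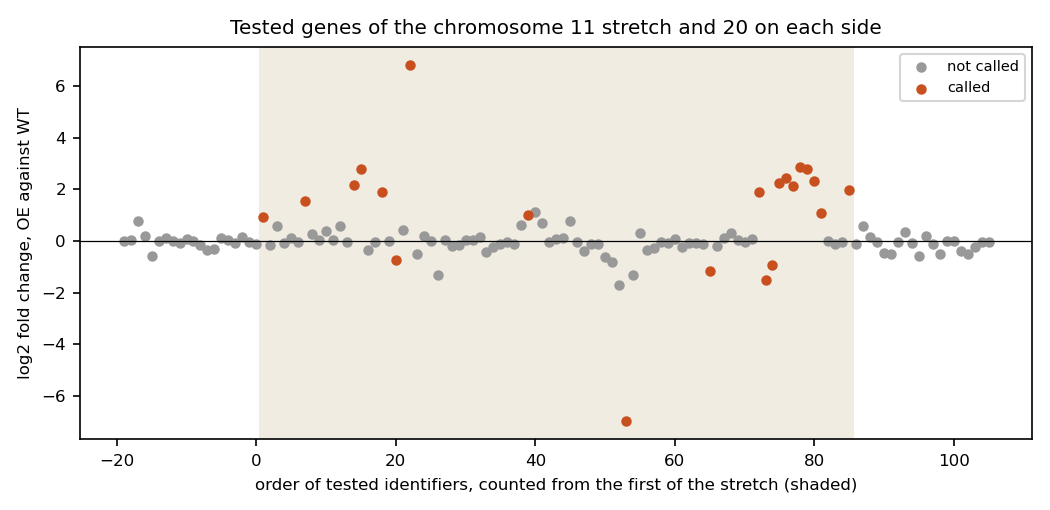
Log2 fold change of OE against WT, on the log2(FPKM + 1) scale, for the 85 tested genes of the chromosome 11 stretch (shaded) and 20 tested genes on each side, in identifier order. Called genes are coloured and lie on both sides of 0, with 0 calls among the 20 genes on either side. Grey genes between them were not called, and some lie far from 0, such as Os11g0214700 at -1.70 and Os11g0210500 at 1.11.

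OE replicate 1 differed from the other OE libraries more than any other library differed from its genotype. In 483 genes its log2(FPKM + 1) was more than 1 away from the mean of the other two, higher in 91 and lower in 392. The same count was 278 for OE replicate 2 and 297 for OE replicate 3. It was 112 to 298 for the WT libraries and 237 to 359 for the mutant libraries. Of the WT libraries, replicate 3 had the most, 298 genes with 223 lower. The count of OE replicate 1 was 169 when 5 was added to the FPKM before logs and 288 among genes with a mean of 5 FPKM or more, in each case the highest of the 9 libraries.

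**Figure D3:**
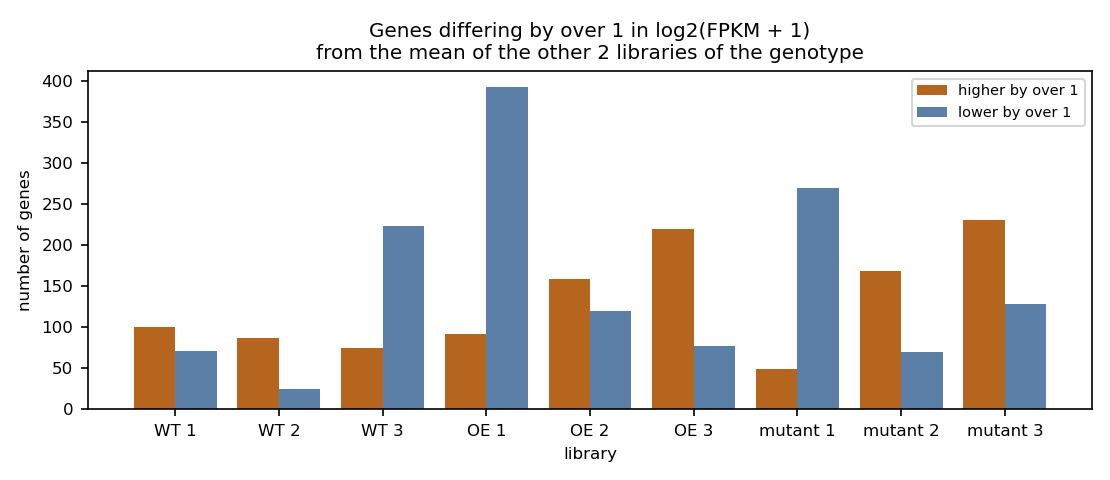
Number of genes in each library whose log2(FPKM + 1) lay more than 1 above or below the mean of the other 2 libraries of its genotype. The bar of lower genes in OE replicate 1 is the tallest, at 392 genes.

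Across the 19850 genes, Pearson's r of log2(FPKM + 1) between OE replicate 1 and the other OE libraries was 0.971 to 0.972, below the 0.979 between OE replicates 2 and 3. It was 0.975 to 0.978 between OE replicate 1 and the WT libraries. The corresponding values with WT were 0.964 to 0.968 for OE replicate 2 and 0.965 to 0.970 for OE replicate 3, and WT libraries had 0.979 to 0.987 with each other. These r are across genes, which are not independent replicates. OE replicate 1 was thus more like the WT libraries than like its own group by this measure. In 63 genes OE replicate 1 lay within the WT range while the other two were more than 1 above it, against 11 such genes for OE replicate 2 and 13 for OE replicate 3. Downward, the counts were 14, 6 and 12.

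OE replicate 1 still lay outside the WT range in all 25 called genes outside the stretch. Among them it was nearest to WT of the OE libraries in 12 and farthest in 6. OE replicate 2 was nearest in 7 and farthest in 9, and OE replicate 3 nearest in 6 and farthest in 10. These genes were called with OE replicate 1 in the fit, so the counts are a description.

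Without OE replicate 1, 71 of 19857 tested genes were called (0.358%), 51 higher (0.257%) and 20 lower (0.101%), with 55 outside the stretch. Of the 46 genes called with all libraries, 35 were among them and 11 were not. Os11g0225300, among these 11, was not tested, because its mean over the libraries left was below 1 FPKM. The other 36 were called only without it, 26 higher and 10 lower, with 0 in the stretch. In 32 of these 36 OE replicate 1 lay on the same side of the WT mean as the other OE libraries, and in 8 it lay within the range of the WT libraries. In all 36 it was closer to the WT mean than the mean of OE replicates 2 and 3. These genes were selected by leaving OE replicate 1 out, so the counts are a description with no test.

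**Figure D4:**
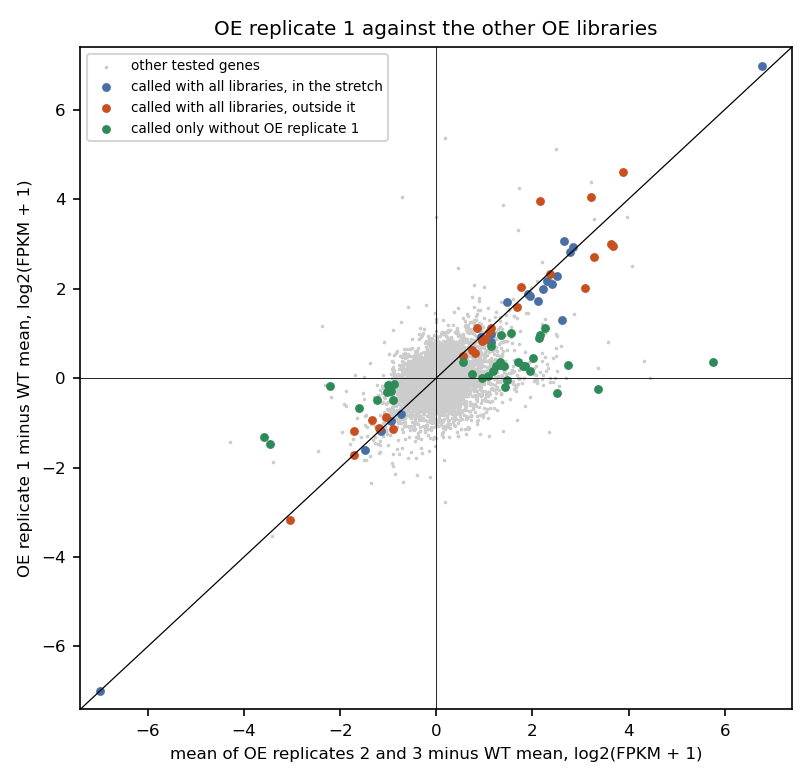
Difference from the WT mean, in log2(FPKM + 1), of OE replicate 1 (vertical) against the mean of OE replicates 2 and 3 (horizontal) for the 19850 tested genes. Genes called with all libraries lie on the same side of the WT mean on both axes. Some lie off the diagonal line of equal change, such as Os04g0330301 (1.80 higher on the vertical axis) and Os11g0203400 (-1.32). Each of the 36 genes called only without OE replicate 1 has a smaller difference from the WT mean on the vertical than on the horizontal axis. The selection of each set favours its position.

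The genes that set OE replicate 1 apart most, among those where OE replicates 2 and 3 were within 0.5 of each other, are given by identifier. They were chosen for this difference, so their values are a description. Os03g0299700 was at 58.0 and 57.8 FPKM in OE replicates 2 and 3 and at 0.397 FPKM in OE replicate 1. It was at 0.136, 0.0666 and 0.0695 FPKM in WT and at most 0.144 FPKM in the mutant. In reads, OE replicate 1 had 6 and the other two 802 and 844. This gene was thus high in 2 of the 9 libraries.

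Os01g0615050 and Os01g0615100 had the same form. Os01g0615050 was at 0.264 FPKM in OE replicate 1, 14.3 and 14.6 FPKM in the other OE libraries and 0.139 to 1.09 FPKM in WT. Os01g0615100 was at 0.174 FPKM in OE replicate 1, 8.20 and 6.67 FPKM in the others and 0.351 to 0.719 FPKM in WT. Both were also high in the mutant, at 9.50 to 23.7 FPKM and 10.6 to 33.9 FPKM. Os07g0167700 differed in that OE replicate 1 alone was low, at 1.82 FPKM, while OE replicates 2 and 3 were at 18.02 and 23.9 FPKM and WT at 15.4 to 21.9 FPKM.

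In the other direction, Os03g0294800 was at 128 FPKM in OE replicate 1 and at 3.44 and 4.05 FPKM in the other OE libraries. WT was at 6.35, 6.98 and 7.09 FPKM, so OE replicate 1 stood alone above all other libraries. Os03g0215600 had 33 reads (11.1 FPKM) in OE replicate 1 and 0 in the 8 others. Os04g0337800 was at 14.0 FPKM in OE replicate 1 and 1.04 to 5.37 FPKM elsewhere. Os06g0176200 split the libraries across genotypes, at 24.1, 20.5 and 0.781 FPKM in WT, 21.1, 0.949 and 0.834 FPKM in OE and 11.4, 1.58 and 1.51 FPKM in the mutant.

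Gene lists for the pathways of OsCOMT and of leaf function showed how these differences between libraries fell. The lists hold only genes whose name met the check against RefSeq, so several leave out members that were chosen at first. Their counts cover only the genes kept, not the whole of a pathway. Over 22 lists, 107 genes other than OsCOMT were tested, and limma called 0 of them with all libraries or without OE replicate 1, as did voom with all libraries. At an unadjusted p under 0.05, 12 were higher and 5 lower, or 15.9% of the 107 against 10.1% of all tested genes. Over all tested genes the median log2 fold change was -0.0044, and OE replicate 1 was the lowest OE library in 38.9% and the highest in 33.2%.

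Monolignol synthesis supplies the units of lignin, and 7 of its 8 listed genes were tested, with OsCOMT as the only call (0 of the other 6 by voom, and 0 at an unadjusted p under 0.05). The median log2 fold change was -0.03. OE replicate 1 was the lowest OE library for 6 of the 7. Its median difference from the WT mean was -0.63, against 0.60 and 0.14 in OE replicates 2 and 3. CAD2, which encodes a cinnamyl alcohol dehydrogenase, was at 111, 111 and 113 FPKM in WT and 71.9, 252 and 159 FPKM in OE. ZB8, a phenylalanine ammonia-lyase gene at the entry of the pathway, was at 7.26, 7.84 and 5.81 FPKM in WT and 2.11, 6.66 and 5.79 FPKM in OE. 4CL4, a coumarate ligase gene, was at 3.48, 4.41 and 4.55 FPKM in WT and 3.57, 3.08 and 3.72 FPKM in OE. The groups overlapped for all 3 genes, and for CAD2 the OE libraries lay on both sides of WT.

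Of the melatonin list 4 of 4 genes were tested, and OsCOMT alone was called. The other members had groups that overlapped and 0 of 3 were called with voom or had an unadjusted p under 0.05. T5H, the tryptamine hydroxylase gene, was at 0.0445 FPKM in OE replicate 1, 2.48 and 1.66 FPKM in the other OE libraries and 0.367 to 0.607 FPKM in WT.

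Type-A response regulators are rapidly induced by cytokinin, a hormone that delays leaf senescence, and restrain its signalling. All 6 tested members of 8 listed had an unadjusted p under 0.05 with higher values in OE, against 5.14% of all tested genes. Limma and voom called 0 of them. The median log2 fold change was 0.85. RR4 was at 52.6, 36.2 and 21.6 FPKM in WT and 73.4, 65.7 and 49.7 FPKM in OE, overlapping at OE replicate 3 (log2 fold change 0.83, limma adjusted p = 0.35). RR6 was at 5.96, 3.88 and 1.23 FPKM in WT and 7.203, 14.6 and 7.28 FPKM in OE (log2 fold change 1.27, limma adjusted p = 0.36). RR9 was at 37.6, 30.2 and 11.6 FPKM in WT and 54.8, 51.1 and 58.1 FPKM in OE (log2 fold change 1.17, limma adjusted p = 0.40). WT replicate 3 was the lowest WT library in these 3 genes, and its median over the list was -0.69 from the WT mean, against 0.53 and 0.16 in WT replicates 1 and 2. RR1 was at 4.49, 3.44 and 3.59 FPKM in WT and 6.14, 5.23 and 4.80 FPKM in OE, without overlap (log2 fold change 0.40, limma adjusted p = 0.39). In 4 of the 6 genes all OE libraries lay above all WT libraries, against 7.6% of all tested genes. OE replicate 1 did not stand apart here, with a median of 1.02 from the WT mean beside 0.93 and 0.52 in OE replicates 2 and 3.

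Cytokinin oxidases break the hormone down, and 5 of 7 listed genes were tested. Limma and voom called 0 of them, and 2 had an unadjusted p under 0.05 with higher values in OE, against 5.14% of all tested genes. CKX3 was at 0.918, 0.897 and 0.895 FPKM in WT and 2.01, 2.16 and 1.32 FPKM in OE (log2 fold change 0.56, limma adjusted p = 0.34). CKX4 was at 15.9, 11.03 and 8.14 FPKM in WT and 18.8, 16.2 and 18.7 FPKM in OE (log2 fold change 0.62, limma adjusted p = 0.47). For both, all OE libraries lay above WT, as they did in 7.6% of all tested genes. CKX2 and CKX9 had log2 fold changes of 0.50 and -0.18.

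The jasmonate list holds synthesis genes and JAZ genes, whose proteins repress jasmonate responses and which the hormone itself induces. Of 10 listed genes 7 were tested. Limma and voom called 0 of them, and 2 had an unadjusted p under 0.05 with higher values in OE, against 5.14% of all tested genes. OE replicate 1 was the lowest OE library in 7 of 7. The median difference from the WT mean was -0.09 in OE replicate 1, 0.21 in OE replicate 2 and 2.16 in OE replicate 3. JAZ11 was at 1.18, 3.00 and 1.68 FPKM in WT and 3.05, 11.1 and 20.5 FPKM in OE (log2 fold change 1.83, limma adjusted p = 0.32). JAZ12 was at 1.32, 3.05 and 1.54 FPKM in WT and 2.20, 6.62 and 24.8 FPKM in OE (log2 fold change 1.57, limma adjusted p = 0.44). JAZ10 was at 1.21, 1.73 and 0.380 FPKM in WT and 0.904, 2.57 and 8.60 FPKM in OE. The order of the OE libraries was the same in all 3 genes. AOC, an allene oxide cyclase gene of jasmonate synthesis, had a log2 fold change of 0.18.

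The medians of the defence list had the same order over the OE libraries. All 5 listed genes were tested, limma and voom called 0, and 0 had an unadjusted p under 0.05. OE replicate 1 was the lowest OE library in 5 of 5, with a median of -1.09 from the WT mean, beside 0.09 and 1.20 in OE replicates 2 and 3. WRKY71, a transcription factor gene, was at 23.2, 21.1 and 15.4 FPKM in WT and 19.96, 29.1 and 46.4 FPKM in OE. WRKY76 was at 6.55, 7.84 and 1.01 FPKM in WT and 1.14, 4.32 and 16.4 FPKM in OE. WRKY62 was at 2.59, 4.36 and 0.924 FPKM in WT and 0.565, 2.27 and 7.41 FPKM in OE. In each of these, WT replicate 3 was the lowest WT library, and the groups overlapped. NPR1, the salicylic acid coactivator gene, was at 20.7, 15.5 and 14.3 FPKM in WT and 14.7, 17.8 and 20.4 FPKM in OE. PBZ1, a pathogenesis-related protein gene, differed in that OE replicate 2 was the highest, at 118, 504 and 342 FPKM in OE against 475, 307 and 116 FPKM in WT.

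**Figure D5:**
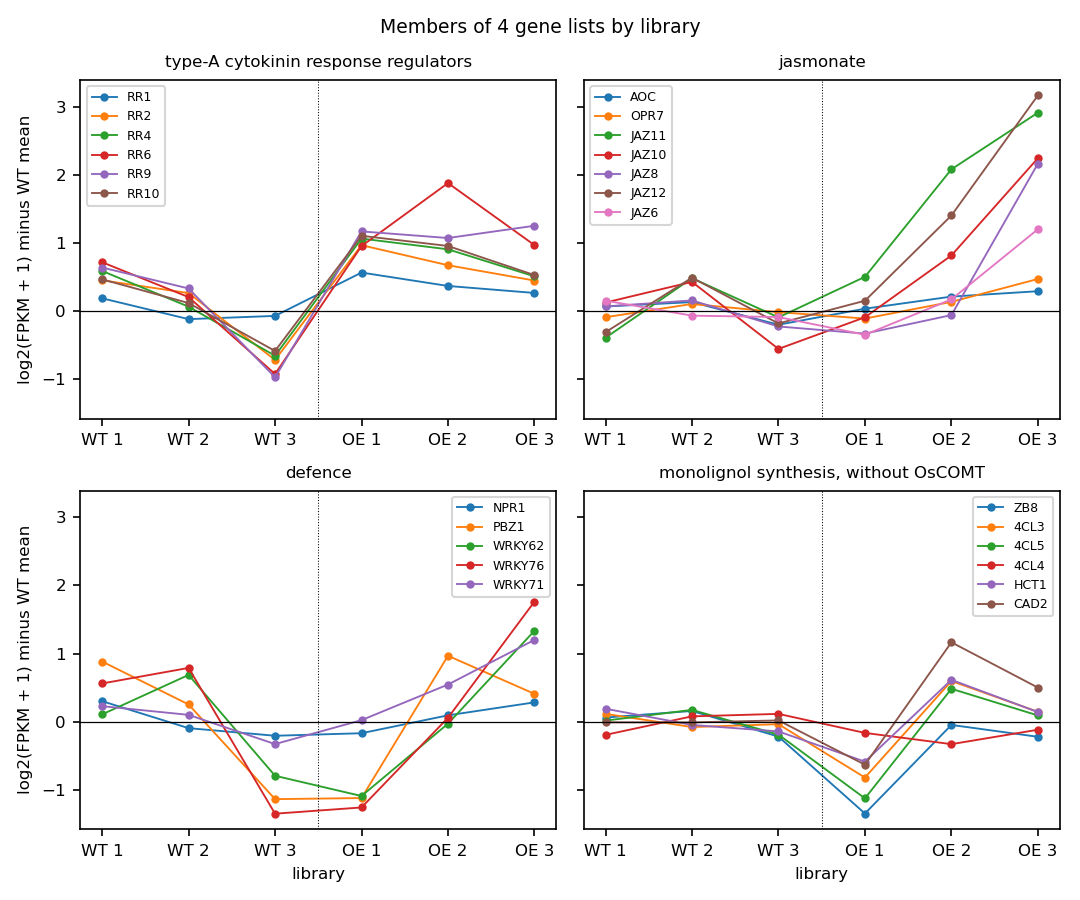
Difference from the WT mean, in log2(FPKM + 1), of the tested members of 4 gene lists in each WT and OE library, 1 line a gene. The median of the response regulators, of which limma and voom called 0, was 1.02, 0.93 and 0.52 in the OE libraries and -0.69 in WT replicate 3, while that of the jasmonate and of the defence genes was lowest in OE replicate 1 and highest in OE replicate 3 among the OE libraries.

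The sucrose export list holds SUT and SWEET sugar transporter genes, and 6 of 7 listed genes were tested. Limma and voom called 0, while 3 had an unadjusted p under 0.05 with lower values in OE, against 4.97% of all tested genes. The median log2 fold change was -0.33. SWEET14, a sugar efflux transporter gene, was at 7.55, 7.83 and 6.02 FPKM in WT and 4.99, 4.72 and 3.58 FPKM in OE (log2 fold change -0.58, limma adjusted p = 0.22). SWEET13 was at 9.77, 11.6 and 13.1 FPKM in WT and 5.74, 7.51 and 6.36 FPKM in OE (log2 fold change -0.73, limma adjusted p = 0.25). The groups did not overlap for either gene, and OE lay below WT without overlap in 8.81% of all tested genes. SUT1, a sucrose transporter gene, was at 56.5, 65.2 and 46.4 FPKM in WT and 46.6, 29.8 and 40.6 FPKM in OE, overlapping at OE replicate 1 (limma adjusted p = 0.32). SUT2 had a log2 fold change of -0.14.

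In nitrogen assimilation 5 of 5 genes were tested, and limma and voom called 0. The cytosolic glutamine synthetase genes had opposite signs, both at an unadjusted p under 0.05, which 10.1% of all tested genes reached. GS1;1 was at 314, 311 and 335 FPKM in WT and 237, 261 and 255 FPKM in OE (log2 fold change -0.35, limma adjusted p = 0.24). GS1;2 was at 14.3, 23.9 and 19.0 FPKM in WT and 36.5, 37.2 and 30.6 FPKM in OE (log2 fold change 0.86, limma adjusted p = 0.24). The groups did not overlap for either, nor for 16.4% of all tested genes. NIA1, a nitrate reductase gene, was at 4.33, 4.80 and 6.51 FPKM in WT and 6.12, 1.70 and 2.92 FPKM in OE, with OE replicate 1 among the WT values. Fd-GOGAT had a log2 fold change of -0.09.

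Lists for the leaf's daily and photosynthetic programmes held 0 genes called by limma or voom and 0 at an unadjusted p under 0.05. In the circadian clock list, with 8 of 8 genes tested, the median log2 fold change was -0.16 and OE replicate 1 was the highest OE library in 7. PRR73, a pseudo-response regulator gene, was at 82.2, 79.1 and 80.1 FPKM in WT and 77.2, 61.1 and 70.2 FPKM in OE. ELF3-1, GI and PRR95 had log2 fold changes of -0.16, -0.19 and -0.21. In the light harvesting list OE replicate 1 was highest in 4 of 4 genes and the median log2 fold change was 0.14. CAB2R, a chlorophyll a/b binding protein gene, was at 1049, 1794 and 463 FPKM in WT and 1951, 1280 and 921 FPKM in OE, a wide spread in both genotypes. The 4 chlorophyll breakdown genes, 3 carbon fixation genes and 4 photorespiration genes had medians of -0.20, 0.06 and -0.00039.

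The remaining lists also held 0 calls with limma or voom. Single genes had an unadjusted p under 0.05 in the phosphate list, where PHO1;2 was lower (log2 fold change -0.52), and among 10 antioxidant enzyme genes, where APX1, an ascorbate peroxidase gene, was higher (log2 fold change 0.22). There were 0 at that level among 5 heat shock, 5 dehydration, 3 iron, 3 abscisic acid, 3 gibberellin, 4 ethylene and 6 plasma membrane aquaporin genes. The 4 secondary wall genes were all below the level tested.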

How the data were processed

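The authors deposited FPKM values per gene, which the submitters' processing notes link to Bowtie 0.12.2, Cuffdiff and the build IRGSP-1.0 without stating each step. 1 further per-sample column matches no sample and was not used. Whole reads were recovered from the FPKM (relative tolerance 1e-06) for all 30062 genes above 0. Floors of 3 reads cover counting error only.

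The test was limma 3.58.1 (R 4.3.3) on log2(FPKM + 1), with a mean-variance trend, all 9 libraries in 1 fit, two-sided, and Benjamini-Hochberg adjustment over 19850 genes. This scale understates changes of low genes. A filter at a mean of 1 FPKM over all libraries keeps some genes only because OE is high. Settings that left out a library, and the fit of WT and OE alone, applied the filter to the libraries left. Alternatives were other pseudocounts (0.1 and 5), filters, quantile normalization, no trend, a replicate block, voom on the recovered reads and each library left out.

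The members and lists were chosen with earlier results of these data known. Genes are named by a fixed rule: OsCOMT, all calls outside the stretch, 2 rises and 2 falls inside it, up to 4 members of smallest p per list described, and 4 genes each way for OE replicate 1. CCA1, PBZ1, neighbours of called genes and further stretch genes with 0 reads were named after their values were seen. Names come from general knowledge and are printed where RefSeq (assembly ASM3414082v1) holds the name on the same chromosome within 0.03 of the same relative rank, met by 149 of 210 pairs. Genes whose name did not meet this check were left out of the gene lists.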

Additional observations from a re-analysis of the deposited data

How the results depend on the processing

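Leaving out 1 library at a time gave 27 calls (without WT replicate 1) to 71 (without OE replicate 1) over all genes, 13 to 55 outside the chromosome 11 stretch, 14 to 19 inside it, and log2 fold changes of 3.28 to 3.63 for OsCOMT. A filter at a mean of 5 FPKM gave 29 calls over all genes and 11 inside the stretch, and leaving the stretch out before adjustment gave 14 outside it. OE replicate 1 had 169 genes more than 1 from the other two with a pseudocount of 5 and 288 with the 5 FPKM filter. Other settings kept these counts within 1.5 times, and OsCOMT passed in all. The genes called changed more than the counts. Outside the stretch, the fit of WT and OE alone made 24 calls, of which 14 were among the 25. The replicate block made 22, with 15 among the 25, and no filter made 23, with 17. Same-numbered WT and OE libraries did not deviate together across the tested genes (r of -0.02, -0.03 and 0.02). With so few libraries a genotype, this cannot decide whether the numbers pair the samples. With the replicate number as a block there were 38 calls (22 outside the stretch, 16 inside), and OsCOMT had a log2 fold change of 3.42. No result in these settings reversed. The cause of the shifts was not tested. The fit with no filter on low values made 44 calls.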

Other observations

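Below the level tested, 2 genes outside the chromosome 11 stretch had 0 reads in each WT library and at least 10 reads in each OE library. Os05g0472400 had 49, 14 and 56 reads in OE and 0 in the mutant. Os11g0196400, whose number comes shortly before the first identifier of the stretch, had 11, 11 and 17 reads in OE and 0, 1 and 0 in the mutant. Both were chosen after their values were seen.

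Among the genes called only without OE replicate 1 were 3 identifiers of close number on chromosome 7, which were also chosen after their values were seen. Os07g0136800 was at 25.7, 19.6 and 13.3 FPKM in WT and 6.20, 2.19 and 0.0223 FPKM in OE, with 8.09, 9.93 and 11.5 FPKM in the mutant. Os07g0137000 was at 30.8, 23.0 and 18.9 FPKM in WT and 8.94, 3.28 and 0 FPKM in OE. Os07g0137500 was at 6.78, 4.79 and 3.24 FPKM in WT and 2.62, 1.12 and 0.691 FPKM in OE. In all 3 the WT and OE libraries did not overlap. Their log2 fold changes without OE replicate 1 were -3.46, -3.58 and -1.60 (limma adjusted p = 0.019, 0.030 and 0.049).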
